A study of Mus musculus with 5 samples.

Results

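The TGF-β receptors and SMADs were described here through 10 genes: the ligands *Tgfb1* and *Tgfb2*, the receptors *Tgfbr1* and *Tgfbr2*, the signal-carrying *Smad2*, *Smad3* and *Smad4*, the inhibitory *Smad6* and *Smad7*, and the co-repressor *Skil*. A peak belonged to a gene when its centre lay in the gene body or within 10 kb of it, or when the nearest start of a protein-coding gene was a start of that gene. By this rule 49 of the 21270 peaks called for SOX11 and 8 of the 2669 called for SOX4 belonged to the 10 genes. The genes are 10 of the 22367 protein-coding genes of the mm9 annotation that were given peaks in the same way.

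The peaks came from ChIP-seq on primary keratinocytes from newborn mice of the genotype Krt14-Cre;Sox11fl/fl;Sox4fl/fl (dcKO), in which Cre is driven by the promoter of keratin 14 in epithelial cells. The labels give the strain background as mixed 129SvEx:C57BL/6, and the Cre line with which the floxed mice were crossed was on FVB/N. By genotype these cells lack both endogenous SOX factors. They carried a lentivirus from which doxycycline induced FLAG-tagged *Sox11* or *Sox4*, so each peak reports an induced, tagged protein. An antibody to FLAG precipitated the chromatin of 2 SOX11-FLAG and 2 SOX4-FLAG replicates, and 1 control library, called input in its title and IgG in its antibody field, has no peak list. For each factor the deposit has a single list of coordinates from its pair of replicates, without heights, scores or p-values, so the depth is unknown, no spread between replicates can be given, and no comparison below was tested. Peak lists hold no expression values, so the cell type could not be checked against its markers.

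TGF-β ligands are secreted in a latent form and, once released, bind the type II receptor TGFBR2, which recruits and phosphorylates the type I receptor TGFBR1. The activated receptor phosphorylates SMAD2 and SMAD3, which enter the nucleus with SMAD4 and bind DNA beside other factors, AP-1 among them. SMAD7 blocks this relay at the receptors and SKIL blocks it at the chromatin, and SMAD6 is the other inhibitory SMAD. In keratinocytes the pathway is known for restraining proliferation and for its part in migration and wound repair.

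SOX4 was also called at 8 of these SOX11 sites, and the 4 in *Smad3* and upstream of *Tgfbr2* are shown first, as sequence on which both factors were called. Each is a whole SOX11 peak of 258 bp on the plus strand of mm9, although both genes are on the minus strand. Capitals mark the SOX core (CATTGT or CTTTGT, or its reverse complement ACAATG or ACAAAG) and the AP-1 core (TGAGTCA or its reverse complement TGACTCA).
Smad3, chr9:63569671-63569928: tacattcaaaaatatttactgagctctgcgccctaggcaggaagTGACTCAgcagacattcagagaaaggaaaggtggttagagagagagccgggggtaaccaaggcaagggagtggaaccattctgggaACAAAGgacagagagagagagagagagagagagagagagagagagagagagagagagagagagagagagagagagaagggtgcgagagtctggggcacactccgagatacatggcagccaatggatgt
Smad3, chr9:63604857-63605114: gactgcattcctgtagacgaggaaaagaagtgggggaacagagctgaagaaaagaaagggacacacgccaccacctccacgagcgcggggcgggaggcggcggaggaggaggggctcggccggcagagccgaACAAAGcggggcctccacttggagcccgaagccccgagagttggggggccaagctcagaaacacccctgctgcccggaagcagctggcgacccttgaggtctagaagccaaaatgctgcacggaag
Tgfbr2, chr9:116127920-116128177: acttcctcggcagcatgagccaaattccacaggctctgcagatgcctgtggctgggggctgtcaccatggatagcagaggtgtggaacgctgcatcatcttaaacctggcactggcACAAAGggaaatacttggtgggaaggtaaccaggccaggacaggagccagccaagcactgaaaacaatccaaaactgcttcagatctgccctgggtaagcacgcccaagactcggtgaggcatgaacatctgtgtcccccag
Tgfbr2, chr9:116292726-116292983: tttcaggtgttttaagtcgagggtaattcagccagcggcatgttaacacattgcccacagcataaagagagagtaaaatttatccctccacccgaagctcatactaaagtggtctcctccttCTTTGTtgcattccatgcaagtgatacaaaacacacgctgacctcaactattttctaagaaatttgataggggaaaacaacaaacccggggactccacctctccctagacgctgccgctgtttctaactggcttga

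The first *Smad3* peak lay in an intron, 36.0 kb downstream of the first start of the gene, and was number 38 of the SOX11 list. Its SOX core sat 4.0 bp from the centre and its AP-1 core 85.5 bp from the SOX core, with a run of repeated GA on the other side. The second *Smad3* peak was number 1128 and lay 0.816 kb inside the gene, in an intron. The *Tgfbr2* peaks were numbers 387 and 420 and lay 43.7 kb and 208 kb upstream of the gene. In these 3 peaks the SOX core was 6.0, 10.0 and 4.0 bp from the centre, and none had an AP-1 core.

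The following 4 sequences were chosen after their values were seen, to show the other kinds of site: 3 at promoters and 1 distal peak of a ligand gene with both cores. For *Tgfbr1* and *Smad6* only the part of the peak upstream of the first annotated start is printed. Build, strand and capitals are as above.
Tgfbr1, chr4:47365934-47366093: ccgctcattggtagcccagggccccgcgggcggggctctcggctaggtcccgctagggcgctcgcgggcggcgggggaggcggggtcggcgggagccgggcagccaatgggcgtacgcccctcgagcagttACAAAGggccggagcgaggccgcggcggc
Smad6, chr9:63869867-63869958: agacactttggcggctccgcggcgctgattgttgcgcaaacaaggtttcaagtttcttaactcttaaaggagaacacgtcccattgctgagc
Skil, chr3:30993454-30993711: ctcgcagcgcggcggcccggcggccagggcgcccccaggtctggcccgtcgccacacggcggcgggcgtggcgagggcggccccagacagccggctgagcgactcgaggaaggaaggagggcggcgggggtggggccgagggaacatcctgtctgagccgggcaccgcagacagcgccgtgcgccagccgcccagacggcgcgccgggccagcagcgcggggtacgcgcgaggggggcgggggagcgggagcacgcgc
Tgfb2, chr1:188433916-188434173: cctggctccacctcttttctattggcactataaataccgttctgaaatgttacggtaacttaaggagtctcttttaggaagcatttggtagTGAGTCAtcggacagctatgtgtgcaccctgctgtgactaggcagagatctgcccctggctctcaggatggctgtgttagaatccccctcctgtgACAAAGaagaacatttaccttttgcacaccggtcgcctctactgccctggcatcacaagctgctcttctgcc

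The *Tgfbr1* promoter peak had a SOX core 5.0 bp from its centre, and the *Smad6* and *Skil* promoter peaks had neither core. The *Tgfb2* peak, 95.8 kb downstream of the first start of the gene and beyond its end, had a SOX core and an AP-1 core 94.5 bp apart and overlapped no SOX4 peak.

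All 10 genes had at least 1 SOX11 peak, and 5 of them, *Tgfbr2*, *Smad2*, *Smad3*, *Smad4* and *Smad7*, had a SOX4 peak. By the same rule 57.0% of all protein-coding genes had a SOX11 peak and 13.0% had a SOX4 peak. The SOX4 count rests on peaks far from the genes: with the gene body and 10 kb around it alone, 1 of the 10 genes, *Smad3*, had a SOX4 peak, against 10.2% of all genes. The number of SOX11 peaks ranged from 1 in *Tgfb1* and *Skil* to 15 in *Tgfbr2*, with a median of 4.5 against 1.0 over all genes. SOX4 gave 2 peaks each to *Tgfbr2*, *Smad2* and *Smad3* and 1 each to *Smad4* and *Smad7*. Only 1.85% of all genes had 2 or more SOX4 peaks. All 8 SOX4 peaks of these genes overlapped a SOX11 peak, as did 94.5% of all SOX4 peaks.

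The genes differ from most others in how much sequence lies nearest to them, and genes with more of it had a peak more often. The stretch of genome nearer to the starts of a gene than to those of any other protein-coding gene had a median of 218 kb for the 10 genes and 45.5 kb for all. Of the 10 genes, 8 had a stretch of 100 kb or more, and of these 8 genes, 8 had a SOX11 peak and 5 a SOX4 peak. Among all 5972 genes with such a stretch 66.4% had a SOX11 peak and 20.0% a SOX4 peak. Among genes with a shorter stretch the shares were 53.6% and 10.4%, and the median number of SOX11 peaks was 1.0 in both classes. Summed over the 10 genes, there were 2.07 SOX11 peaks per 100 kb of this stretch against 0.801 over all genes, and 0.345 SOX4 peaks per 100 kb against 0.101. Per gene, the density of SOX11 peaks was highest at *Tgfbr2*, with 3.39 per 100 kb, followed by *Smad3* with 2.77 and *Smad4* with 2.47. It was 0.0 at *Tgfb1*, whose peak lies nearest to a start of another gene.

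**Figure D1:**
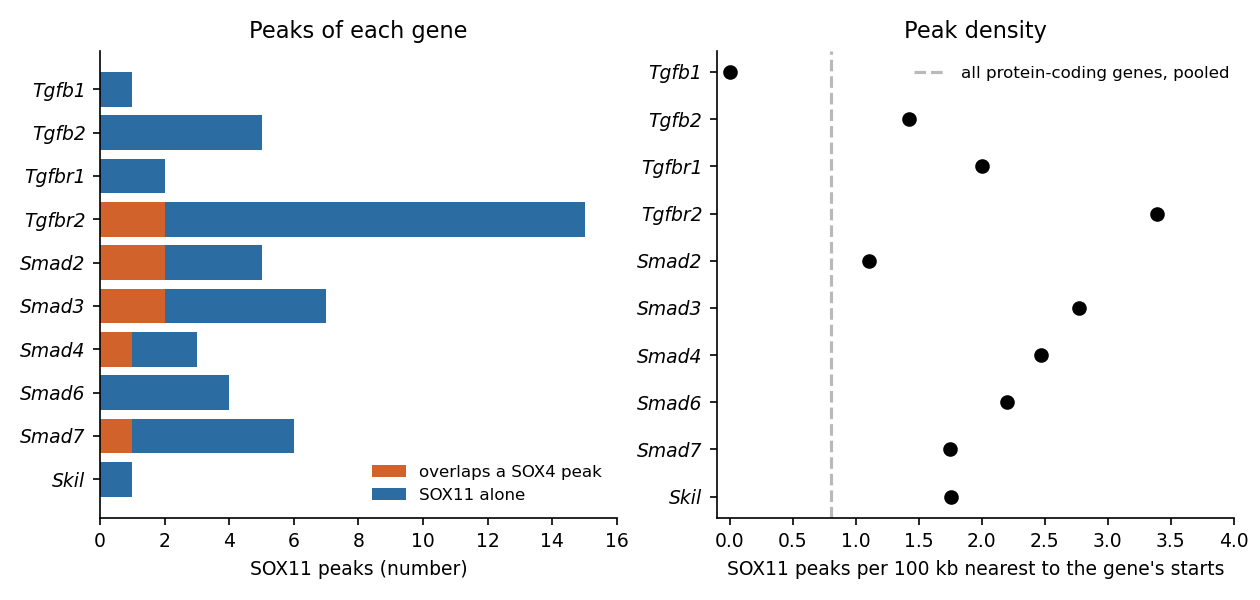
SOX11 peaks of each of the 10 genes (left, number of peaks, with those that overlap a SOX4 peak in orange) and SOX11 peaks per 100 kb of the sequence nearest to the starts of each gene (right, points, with the value pooled over all protein-coding genes as a dashed line). *Tgfbr2* has 15 peaks and the highest density, 3.39 per 100 kb, and 9 of the 10 genes lie above the pooled 0.801 while *Tgfb1* lies at 0.0.

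Among the ligand genes, *Tgfb2* had 5 SOX11 peaks and *Tgfb1* had 1, and neither had a SOX4 peak. The 1 peak of *Tgfb1* (chr7:26496770-26497027) lay in an exon of the neighbouring gene *Ccdc97*, 24.9 kb from the first start of *Tgfb1*. It held 2 AP-1 cores and no SOX core, and it counted for *Tgfb1* only because it was within 10 kb of the end of the gene. The next SOX11 peak on that side, 13.9 kb from *Tgfb1* and outside the rule, lay in the promoter of *Ccdc97*. No SOX11 peak was called in the body of *Tgfb1*.

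*Tgfb2* had a peak at its own start (chr1:188529044-188529301), with a centre 3 bp from one of its 3 annotated starts and a GC content of 72.5%. Its other peaks lay 7.85 kb upstream and 95.8, 119 and 261 kb downstream of the first start, all outside the gene. Of the 5, 1 had a SOX core, 2 had an AP-1 core and 1 of these had both. Apart from the peak that is printed above, number 6762, the *Tgfb2* peaks came late in the SOX11 list, from number 16172 to number 20981.

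The receptor genes differed most in the number of SOX11 peaks, with 100 kb of nearest sequence for *Tgfbr1* and 443 kb for *Tgfbr2*. Per 100 kb of it they had 2.0 and 3.39 peaks, and within the gene body and 10 kb they had 2 and 3. *Tgfbr1*, the type I receptor, had 2 SOX11 peaks and no SOX4 peak. Its promoter peak (chr4:47365934-47366191) had its centre 32 bp upstream of the first start, a GC content of 77.5% and the 1 SOX core found among the promoter peaks of the 10 genes. Its other peak lay in an intron, 54.2 kb downstream, with a SOX core and an AP-1 core 46.5 bp apart.

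*Tgfbr2*, the type II receptor that binds the ligand, had 15 SOX11 peaks, which is 30.6% of all peaks of the 10 genes. Of all protein-coding genes, 19 had more. This count was not scaled to the stretch of nearest sequence, which was longer at *Tgfbr2* than at 94.7% of genes. Per 100 kb of that stretch, *Tgfbr2* had a higher density of SOX11 peaks than 83.1% of genes. No peak lay at its start: 12 were upstream, between *Tgfbr2* and *Rbms3*, and 3 in its introns. The nearest upstream peak was 12.0 kb from the start and the farthest was 208 kb. A run of 5 upstream peaks spanned 47.2 kb and a run of 4 spanned 23.7 kb, with gaps of at most 20 kb between neighbours, and each run contained 1 of the 2 peaks shared with SOX4. Between the runs were 3 more peaks, 92.3, 144 and 154 kb upstream.

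The shared peak of the nearer run is chr9:116127920-116128177 and that of the farther run is chr9:116292726-116292983. They were the earliest peaks of *Tgfbr2* in the SOX11 list. Of the 12 upstream peaks, 8 had a SOX core and 4 had an AP-1 core. In the peak 185 kb upstream the cores were 8.5 bp apart, in the peak 92.3 kb upstream 19.5 bp apart, and in the peak 33.0 kb upstream 126.5 bp apart. The intron peaks lay 21.2, 22.3 and 62.8 kb downstream of the start. The first of them had an AP-1 core, the last a SOX core and the middle one neither.

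**Figure D2:**
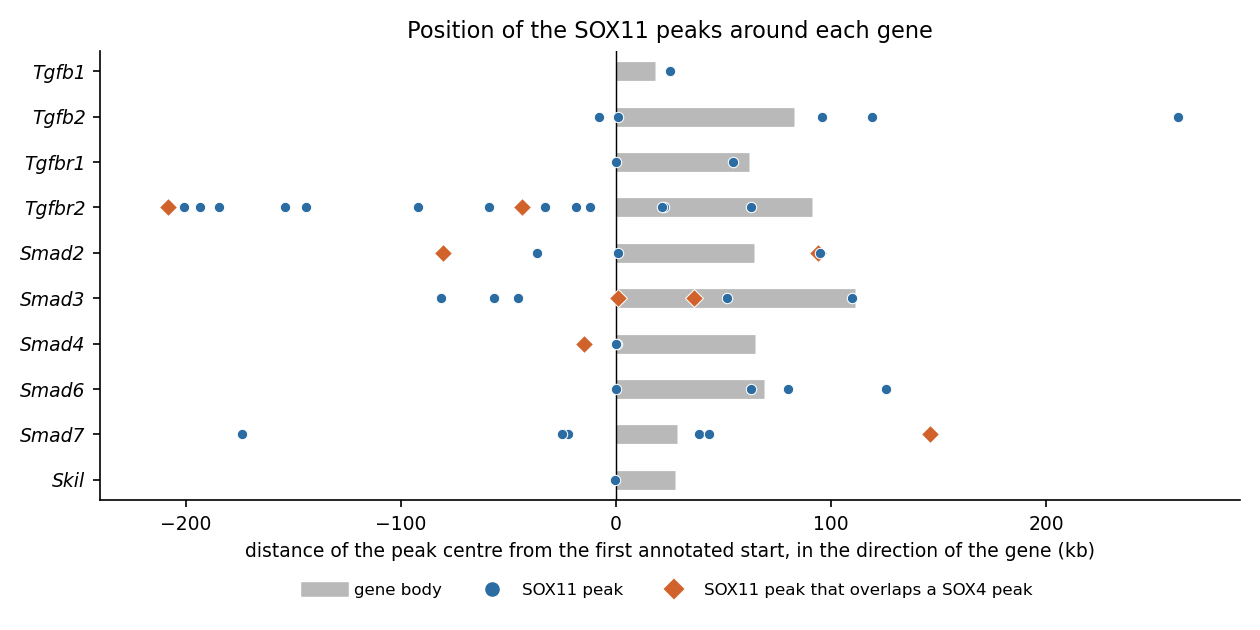
Distance in kb of every SOX11 peak from the first annotated start of its gene, counted in the direction of the gene so that negative values are upstream, with the gene body as a grey bar. Orange diamonds are peaks that overlap a SOX4 peak. The *Tgfbr2* peaks spread over 208 kb upstream while its start has none, and 6 of the 10 genes have a peak at a promoter. Over all 22367 protein-coding genes 4947 SOX11 peaks lay in promoters, and the share of genes with such a peak was not counted.

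Among the SMADs that receptors phosphorylate, *Smad3* had 7 SOX11 peaks, a number that 277 protein-coding genes exceeded, and *Smad2* had 5. Per 100 kb of nearest sequence, *Smad3* had a higher density than 79.2% of genes and *Smad2* than 63.6%. Both had 2 SOX4 peaks. In *Smad3*, 4 peaks lay in the gene: the intron peaks at 0.816, 36.0 and 51.5 kb and a peak at 110 kb in an exon near the end of the gene. The other 3 lay upstream in the stretch between *Smad3* and *Smad6*, at 45.4, 56.9 and 81.6 kb. The 2 shared peaks, printed above, were both in the gene and were the earliest of *Smad3* in the list. Each had a SOX core followed by TC, a longer match found in 5 of the 49 peaks (10.2%) against 12.5% of all SOX11 peaks. Among the peaks shared with SOX4 it was in 3 of 8, against 31.2% of all shared peaks. SOX4 called the first of the 2 *Smad3* peaks as number 165 of its 2669 peaks, the earliest place of any SOX4 peak of the 10 genes.

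*Smad2* had 1 peak at its start (chr18:76401765-76402022, 65 bp from the nearest of its 6 starts), with a GC content of 79.8% and neither core. Its shared peaks lay outside the gene, 80.5 kb upstream (chr18:76320569-76320826) and 93.8 kb downstream of the first start (chr18:76494920-76495177). The downstream peak had a SOX11 neighbour 0.769 kb away with an AP-1 core and no SOX core, which overlapped no SOX4 peak. The remaining peak, 36.8 kb upstream, had neither core.

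*Smad4*, the partner of both, had 3 SOX11 peaks within 15.5 kb around its start. One was in the promoter (chr18:73863386-73863643, 80 bp upstream of the first start) and had neither core. Another lay 0.594 kb into the gene, in an intron (chr18:73862712-73862969), with a SOX core 7.0 bp from its centre. The third (chr18:73878216-73878473) lay 14.9 kb upstream and overlapped a SOX4 peak. In it the SOX core was 71.0 bp from the centre, the farthest among the shared peaks, and the centres of the SOX11 and SOX4 peaks were 63 bp apart, also the largest distance among the 8.

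The inhibitory SMADs had 4 SOX11 peaks (*Smad6*) and 6 (*Smad7*). The earliest peak of *Smad6* (chr9:63869701-63869958, number 2789) had its centre 37 bp downstream of the first start. Across that start it held the word GTCTAGAC, the palindrome that SMAD3 and SMAD4 are known to bind. It was the 1 peak of the 49 with this word, which occurs in 0.301% of all SOX11 peaks and in 0.188% of the sequences of equal width 2 kb downstream of them. The other *Smad6* peaks lay 62.8 kb downstream in an intron and 80.1 and 125 kb downstream, beyond the gene. Both the intron peak and the peak at 80.1 kb had a SOX core. *Smad6* had no SOX4 peak.

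*Smad7* had no SOX11 peak in its body or at its starts. Its peaks lay 22.3, 25.0 and 174 kb upstream and 38.3, 43.0 and 146 kb downstream of the first start. The earliest in the list was the peak 22.3 kb upstream (chr18:75504706-75504963), which had 2 SOX cores and overlapped no SOX4 peak. The shared peak was the one at 146 kb (chr18:75672814-75673071), in an intron of *Ctif*, with a SOX core at its very centre. The peak at 174 kb lay in an intron of *Dym*. *Smad7* was the nearest start for both, so they were counted for it although another gene contains them.

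*Skil*, the co-repressor, had 1 SOX11 peak, 398 bp upstream of its first start, with a GC content of 80.6%, the highest of the 49, and 40 CpG. The SMAD word CAGACA occurred in it 3 times. Outside the rule, a SOX11 peak that overlapped a SOX4 peak lay 33.7 kb from *Skil* and nearer to a start of *Prkci*. It was the 1 SOX4 peak, and there were 10 SOX11 peaks, that lay within 50 kb of one of the 10 genes and belonged to another gene.

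In all, 8 of the 49 peaks were shared with SOX4, which is 16.3% (95% Wilson interval 8.51 to 29.0) against 11.9% of all SOX11 peaks. The interval contains the value over all peaks. The intervals here and below cover counting error over the peaks of 1 list, which are not replicates. The centres of the paired SOX11 and SOX4 peaks were 1 to 63 bp apart, with a median of 11.5 bp against 24.0 bp over all pairs.

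By the rule used here, most peaks of the 10 genes lay far from a start. Of the 49, 30 (61.2%, 47.2 to 73.6) lay between genes against 40.0% of all SOX11 peaks, and 38 (77.6%, 64.1 to 87.0) lay over 10 kb from the nearest start against 52.1%. Introns held 11 (22.4%) and exons 2 (4.08%), against 33.4% and 3.34% of all SOX11 peaks. Promoters, taken as 1 kb upstream to 100 bp downstream of a start, held 6 peaks (12.2%, 5.73 to 24.2) against 23.3% of all, 1 each at *Tgfb2*, *Tgfbr1*, *Smad2*, *Smad4*, *Smad6* and *Skil*. With the gene body and 10 kb alone, promoters held 6 of the 19 peaks (31.6%, 15.4 to 54.0) against 33.1% of all SOX11 peaks so placed in any gene. Between genes lay 2 of the 19 (10.5%, 2.94 to 31.4) against 14.7%. Both differences were within the intervals, so the excess between genes was not seen without the nearest start in the rule. *Tgfbr2* alone gave 12 of the peaks between genes. Without its 15 peaks, the share between genes was 52.9% (36.7 to 68.5) and the promoter share 17.6% (8.35 to 33.5), an alternative chosen after seeing the data.

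None of the 6 promoter peaks overlapped a SOX4 peak, while 11.5% of all SOX11 promoter peaks did. Their median GC content was 75.0% against 64.7% over all promoter peaks, and their median number of CpG was 34.5 against 21.0. Only the *Tgfbr1* peak had a SOX core (16.7%, 3.01 to 56.4), against 38.1% of all SOX11 promoter peaks. None had an AP-1 or TEAD core, against 6.27% and 10.6% of all, and with 6 peaks a count of 0 allows shares of up to 39.0% (upper end of the 95% Wilson interval). Taken as 1 kb to each side of a start, promoters held 8 peaks. They then included the *Smad3* peak at 0.816 kb, which overlapped a SOX4 peak, and the *Smad4* peak at 0.594 kb, both with a SOX core.

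The place of a peak in the deposited list is the one further value that the files give, and its meaning is not stated in the sources used here. Over all SOX11 peaks, those that overlap a SOX4 peak had a median number of 1971.5 and the others of 11652.5. All 8 shared peaks of the 10 genes were in the first 50% of the list, as were 88.8% of all shared peaks. Their median number was 1429.5, against 9521 for the other 41. *Smad3* and *Tgfbr2* held the 4 earliest of the 49.

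**Figure D3:**
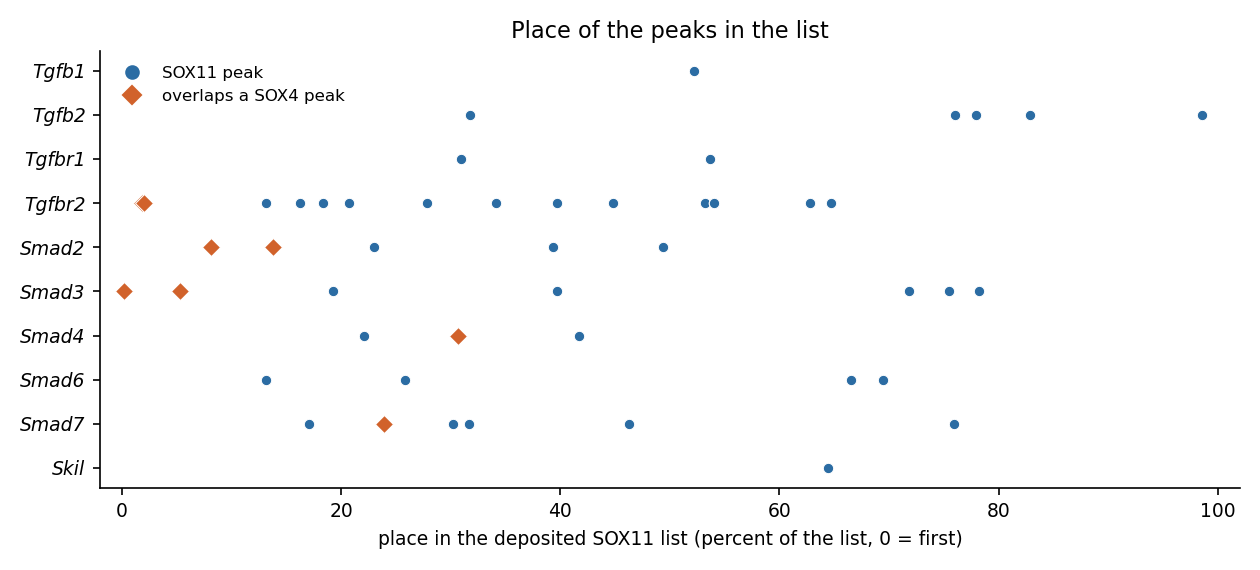
Place of each SOX11 peak in the deposited list, in percent of the list, by gene. Orange diamonds overlap a SOX4 peak. They lie between 0.179% and 30.7% of the list, while the other peaks reach from 13.1% to the end of the list, where *Tgfb2* has its last peak.

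The shared peaks and the others differed in how often they contained a SOX core, a difference that was not tested. A SOX core occurred in 8 of the 8 shared peaks and in 17 of the other 41 (41.5%, 27.8 to 56.6). Over all SOX11 peaks the shares were 83.6% of those shared with SOX4 and 55.1% of the rest. In 7 of the 8, all but the *Smad4* peak, a SOX core lay within 10 bp of the centre of the peak (87.5%, 52.9 to 97.8), against 43.8% of all shared peaks. Among the other 41 peaks of the 10 genes 6 had one so near (14.6%, 6.88 to 28.4), against 16.7% of all unshared peaks. The distance of 10 bp was chosen after seeing the data. Within 50 bp it was the same 7 of 8 against 76.2% of all shared peaks, a value inside the interval, and 31.7% of the other 41 against 42.4% of all unshared peaks. An AP-1 core occurred in 1 of the 8 (12.5%, 2.24 to 47.1), in *Smad3*, and in 12 of the 41 (29.3%, 17.6 to 44.5). These intervals overlap. The wider SOX4 peaks at the 8 sites held an AP-1 core in 2 of 8 (25.0%, 7.15 to 59.1), against 26.1% of all SOX4 peaks. Over all SOX11 peaks the AP-1 shares were 25.2% of those shared with SOX4 and 29.0% of the rest.

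**Figure D4:**
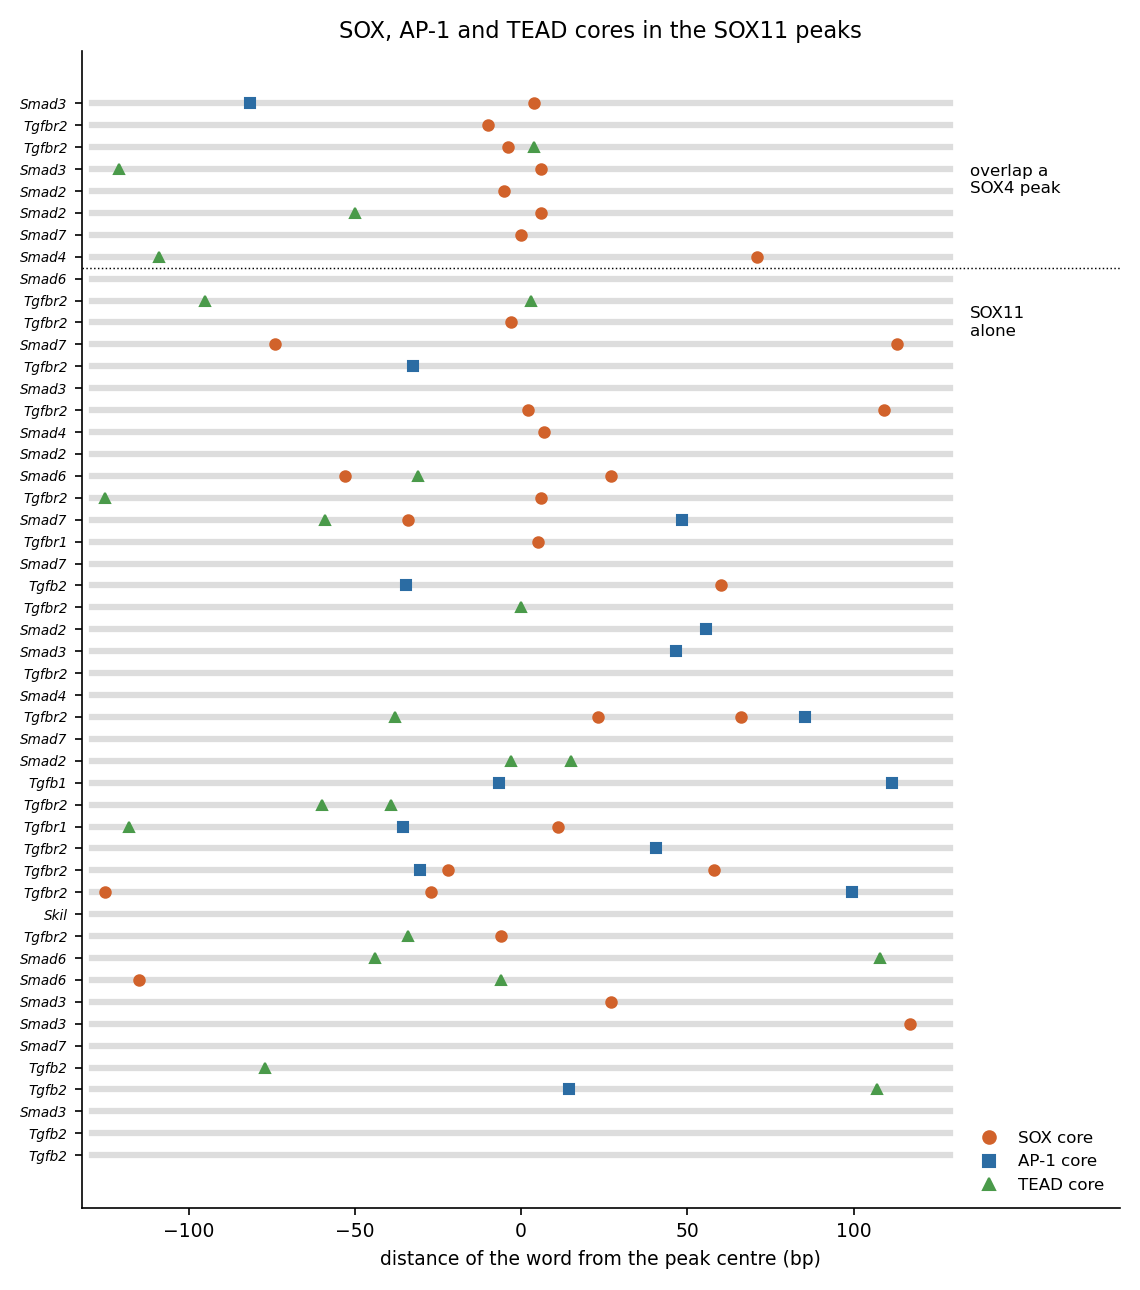
Position in bp from the peak centre of each SOX core (orange circles), AP-1 core (blue squares) and TEAD core (green triangles) in the 49 SOX11 peaks, 1 row a peak in list order, with the 8 that overlap a SOX4 peak above the dotted line. In 7 of these 8 the SOX core lies within 10 bp of the centre. Neither a SOX core nor an AP-1 core is present in 18 of the 49 rows (36.7%, 24.7 to 50.7), against 30.2% of all SOX11 peaks.

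Over all 49 peaks, a SOX core was found in 25 (51.0%, 37.5 to 64.4) against 58.5% of all SOX11 peaks, and in 26.5% of the sequences of equal width 2 kb downstream. An AP-1 core was found in 13 (26.5%, 16.2 to 40.3) against 28.5% of all, and in 2.04% of the downstream sequences. Both cores occurred in 7 peaks, 3 of them upstream of *Tgfbr2* and 1 each at *Tgfb2*, *Tgfbr1*, *Smad3* and *Smad7*, which is 14.3% against 17.2% of all. In these 7 the nearest cores were a median of 82.5 bp apart, against 50.5 bp over all peaks with both.

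The TEAD core GGAATG (or CATTCC) was in 18 of the 49 peaks (36.7%, 24.7 to 50.7) against 22.8% of all SOX11 peaks, and in 8.16% of the downstream sequences against 13.4%. Without the *Tgfbr2* peaks the share was 32.4% (19.1 to 49.2), an interval that contains the value over all peaks. The SMAD word CAGACA (or TGTCTG) was in 16 peaks (32.7%, 21.2 to 46.6) against 26.5% of all, and in 18.4% of the downstream sequences against 23.5%. These words are short, and a match does not show that a protein is bound there.

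**Figure D5:**
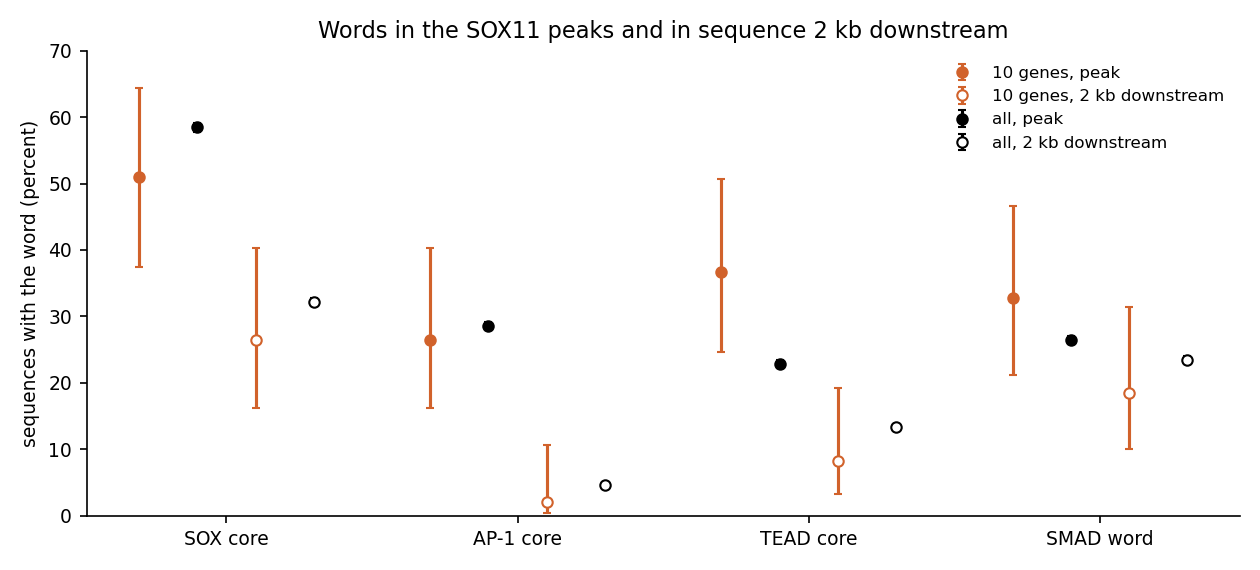
Share in percent of the 49 SOX11 peaks of the 10 genes (orange) and of all SOX11 peaks (black) that contain each word, with the same share in sequence of equal width 2 kb downstream as open circles. Bars are 95% Wilson intervals. For the SOX core, the AP-1 core and the SMAD word the value over all peaks lies within the interval of the 10 genes, and for the TEAD core 22.8% lies below the interval of 24.7 to 50.7%.

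Beyond the 10 genes, 54 of 58 other genes of TGF-β and BMP signalling (93.1%) had a SOX11 peak and 18 (31.0%) had a SOX4 peak, against 57.0% and 13.0% of all protein-coding genes. With the gene body and 10 kb alone, 12 of the 58 had a SOX4 peak, against 10.2% of all protein-coding genes. The stretch of nearest sequence had a median of 129 kb for the 58 genes and 45.5 kb for all. Summed over the 58 genes, there were 1.56 SOX11 peaks per 100 kb of it, against 0.801 over all genes. The median per gene was 2.09 per 100 kb for the 58, 1.88 for the 10 genes and 0.0 over all genes. Among all genes with a stretch of 100 kb or more, as 36 of the 58 and 8 of the 10 have, it was 0.505. The counts of the single lists are to be read against the same 57.0% and 13.0%, and the lists are short. Ligands had a SOX11 peak in 8 of 8 and a SOX4 peak in 3. *Tgfb3*, the third TGF-β ligand, had 5 SOX11 peaks and 3 SOX4 peaks, more SOX4 peaks than any of the 10 genes, *Inhba* had 10 and 1, *Inhbb* and *Bmp6* 5 and none each, and *Bmp2* 2 and 1. Among 10 genes of the latent complex and its activation, 9 had a SOX11 peak, led by *Thbs1*, which activates latent TGF-β, with 15 SOX11 and 2 SOX4 peaks and by *Ltbp1*, which anchors it in the matrix, with 13 and 1. *Ltbp4* had 1 of each.

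Of 12 further receptors and co-receptors, 11 had a SOX11 peak, at most 5 in a gene, as at *Tgfbr3* and *Bmpr2*, and *Acvr2b* and *Bmpr1b* had 1 SOX4 peak each. None of the 3 SMADs of the BMP branch had a SOX4 peak, and *Smad1* and *Smad5* had 3 and 2 SOX11 peaks. All 12 intracellular regulators had a SOX11 peak and 7 had a SOX4 peak (57.0% and 13.0% of all genes). *Tgif1*, a co-repressor of SMAD2 and SMAD3, had 11 SOX11 and 2 SOX4 peaks, *Pmepa1*, which holds these SMADs back, had 6 and 2, and *Trim33* had 7 and none. *Tgif2*, *Smurf1*, *Rnf111*, *Ppm1a* and *Wwp1* had 1 SOX4 peak each, which at *Rnf111* and *Wwp1* overlapped none of the SOX11 peaks of the gene.

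Among 5 extracellular antagonists 4 had a SOX11 peak and *Dcn* had the 1 SOX4 peak, beside 4 SOX11 peaks. *Chrd* had 2 SOX11 peaks. All 8 transcriptional targets had a SOX11 peak, most at *Id2* with 9 and at *Cdkn2b*, a cell cycle inhibitor, with 7, and *Cdkn2b* and *Tgfbi* had 1 SOX4 peak each. The 4 genes of these lists with no SOX11 peak were *Lrrc32*, *Acvr1c*, *Smad9* and *Grem1*. Of the 36 genes with a stretch of nearest sequence of 100 kb or more, 35 had a SOX11 peak and 13 a SOX4 peak, where all genes with such a stretch had 66.4% and 20.0%. Of the other 22, 19 had a SOX11 peak and 5 a SOX4 peak, where all genes with a shorter stretch had 53.6% and 10.4%.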

How the data were processed

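ChIP-seq of SOX11-FLAG and SOX4-FLAG was read from 2 deposited peak lists, each made by the authors from 2 replicates. Per the labels and the study's methods, the build was mm9 and the authors' tools were Bowtie2 for the single-end reads, Picard for duplicates, HOMER (findPeaks) for the peaks and bedtools for the blacklist, so sites in blacklisted or poorly mapped sequence are missing from the lists. Tool versions, HOMER thresholds and the control it was given are not given in the sources used here. The deposited values are start and end coordinates and nothing else, so depth and peak height are unknown from them, and a peak near the threshold cannot be told from a strong one. The study names *Smad3* among genes with high SOX11 peaks where ChIP-qPCR on fresh epidermal cells of SOX11-induced pups also found enrichment. Its main text does not say which *Smad3* peak was measured. Starts are 0-based in the files, and printed coordinates count from 1. Most SOX11 peaks are 258 bp wide and most SOX4 peaks 340 bp.

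Genes and the starts of all their transcripts came from the GENCODE annotation of mm9 (protein-coding genes on the autosomes, X and Y). A peak was placed by its centre and given to genes by the rule stated in the report. Promoters reached from 1 kb before a start to 100 bp after it, and other peaks were in an exon, in an intron or between genes. Lists overlapped where they shared at least 1 bp. Words were searched on both strands in the mm9 sequence, also in sequence of equal width 2 kb downstream. A peak with a word counted once. The scripts were tested on simulated data: 700 of 700 planted overlaps, 200 of 200 planted SOX cores and 500 of 500 nearest starts were found. Python 3.11.15, numpy 2.4.6, scipy 1.17.1, pysam 0.24.0, samtools 1.23.1 and matplotlib 3.10.9 were used.

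All 10 genes are named. Single peaks have coordinates where they overlap a SOX4 peak, lie in a promoter of the gene or come first in the list for the gene. Of each of 7 pathway lists, the genes with a SOX4 peak and the 2 with most SOX11 peaks are named. The 10 genes, the 58 pathway genes and the words were chosen with earlier results of these data known. No test was run, and shares carry 95% Wilson intervals.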

Additional observations from a re-analysis of the deposited data

How the results depend on the processing

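The 12 results (the counts of peaks, the counts of genes with a peak and the shares above) were recomputed under 84 alternatives, of which 75 moved by at most 1.5 times (counts) or stayed within the 95% interval (shares) and 9 moved further. Among the 84, the shares between genes and with a TEAD core were recomputed only without the *Tgfbr2* peaks. The share between genes with the gene body and 10 kb alone was 10.5% against 14.7% of all so placed. It lay outside its main interval of 47.2 to 73.6 and is not among the 9. With the gene body and 10 kb alone, without the nearest start, the 10 genes had 19 SOX11 peaks and 2 SOX4 peaks, 1 gene (*Smad3*) had a SOX4 peak against 10.2% of all genes, and promoters held 31.6% of the SOX11 peaks, against 33.1% of the SOX11 peaks that this rule gave to any gene (12.2% against 23.3% above). Under it 10.5% of the SOX11 peaks overlapped a SOX4 peak against 11.8%, where the main values were 16.3% and 11.9%, so the direction turned, with each value over all peaks inside the interval of the 10 genes. Of the 58 pathway genes, 12 had a SOX4 peak under this rule, to be read against the same 10.2% of all genes. With the first 50% of each list, they had 31 SOX11 peaks and 5 SOX4 peaks, 3 of them had a SOX4 peak against 7.03% of all genes, and 10 pathway genes had a SOX4 peak. With the SOX core followed by TC, 10.2% of the SOX11 peaks held it against 12.5% of all SOX11 peaks, since fewer sequences fit the longer word. Of the alternatives, 16 were chosen after seeing the data: 10 that used only starts of protein-coding transcripts and 6 that left out the peaks of *Tgfbr2*. With a window of 5 kb, with none or with the nearest start alone, *Tgfb1* had no peak and 9 of the 10 genes had a SOX11 peak. Of all protein-coding genes, 53.3%, 48.5% and 46.6% had one under these rules, in that order.

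No paired analysis was possible because each list holds both replicates of its factor, and no replicate was left out for the same reason. A list that gives no depth or height does not show whether a gene without a SOX4 peak lacks binding or fell below the threshold, and the difference in length between the lists (2669 against 21270 peaks) limits any reading of SOX4 against SOX11.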
